A study of Mus musculus with 10 samples.

Results

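The 38 genes described here are Hox genes of the 4 mouse clusters Hoxa, Hoxb, Hoxc and Hoxd, out of 49550 annotated genes on the 19 autosomes and X. Each cluster was taken from the lowest to the highest coordinate of its member genes in the RefSeq annotation, without any measured value, and every listed CG position in between belonged to it. This gave 2685 positions of the 922427 listed in at least 1 group. The study mapped 5-carboxylcytosine (5caC) CG by CG in mouse embryonic stem cells, by removing the carboxyl group with an engineered SssI methyltransferase, tagging the base, enriching the fragments and sequencing from the tag. The 10 samples were 5 groups with 2 technical replicates each. The groups used here were Tdg cells in serum-2i, Tdg cells in serum, wild-type (wt) cells in serum-2i and wt cells in serum. All were grown without feeder cells on gelatin in serum with LIF, a cytokine that keeps stem cells undifferentiated, and the serum-2i medium held 3 µM CHIR99021, a GSK3 inhibitor, and 1 µM PD0325901, a MEK inhibitor, in addition. The labels name the gene Tdg but neither the kind of alteration nor the number of clones, and coverage of DNA gives no marker expression, so the labelled cell type could not be checked. DNA of serum-grown cells without the Tet enzymes was the study's negative control and is not analysed here.

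Hox genes encode homeodomain transcription factors that set position along the head-to-tail axis of the embryo. Within a cluster they are transcribed from the same strand and are switched on in order, so that genes of low paralogue number act in the hindbrain and neck and genes of high number in the lumbar region, the tail, the distal limbs and the urogenital tract. In undifferentiated embryonic stem cells the clusters are known to be largely silent and covered by Polycomb complexes. 5caC is made from 5-methylcytosine by the Tet dioxygenases, and thymine DNA glycosylase, the product of Tdg, excises it, so that cells without this activity keep 5caC that would otherwise be removed.

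Values are the mean coverage of a CG position over the 2 technical replicates of a group, and a position is called a site of a group if the deposited table lists it there. The groups had 689303 (serum-2i Tdg), 374488 (serum Tdg), 110753 (serum-2i wt) and 8685 sites (serum wt). The lowest listed coverage was 6, 6, 4 and 3 in the same order, and a position not listed has an unknown value rather than 0. There was 1 value per group, so no spread between replicates or cultures could be set against any difference below, and no p-value was computed.

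The 4 clusters held far fewer sites in serum-2i than in serum Tdg cells, although serum-2i Tdg cells had 1.84 times as many sites in the whole genome. The clusters held 705 sites in serum-2i Tdg cells and 2576 in serum Tdg cells. Among wt cells they held 59 in serum-2i and 55 in serum. As a share of all sites of the group this was 0.102% (exact Clopper-Pearson 95% interval 0.0949 to 0.110) in serum-2i Tdg and 0.688% (0.662 to 0.715) in serum Tdg cells. In wt cells it was 0.0533% (0.0406 to 0.0687) in serum-2i and 0.633% (0.477 to 0.824) in serum. These intervals, like all others here, concern counting error only and treat sites or units of coverage as independent counts. PCR copies were not told apart by molecular identifiers and 1 read can span several CGs. The intervals are therefore too narrow by an unknown amount, and so are the calls that use them less certain than stated. Sites in the clusters were also more deeply covered in serum Tdg cells, with a median coverage of 13 in serum-2i Tdg and 18 in serum Tdg cells, against medians over the whole series of 13.5 and 14.5.

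Hoxa, on chromosome 6 from 52162417 to 52260880 (mm10), held 153 sites in serum-2i Tdg and 616 in serum Tdg cells, with 16 in wt cells in serum-2i and 14 in wt cells in serum. Hoxb, on chromosome 11 from 96194316 to 96368254, held 251, 803, 23 and 17 sites in the same groups. Hoxc, on chromosome 15 from 102921131 to 103036856, held 190, 609, 12 and 6 sites. Hoxd, on chromosome 2 from 74668225 to 74765142, held 111, 548, 8 and 18 sites. All 4 clusters thus had fewer sites in serum-2i than in serum Tdg cells, while in wt cells the number of sites was higher in serum-2i for Hoxa, Hoxb and Hoxc and lower for Hoxd. Relative to the group's total, each cluster had a smaller share of sites in serum-2i than in serum in both genotypes, as the plot of shares by cluster shows.

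**Figure D1:**
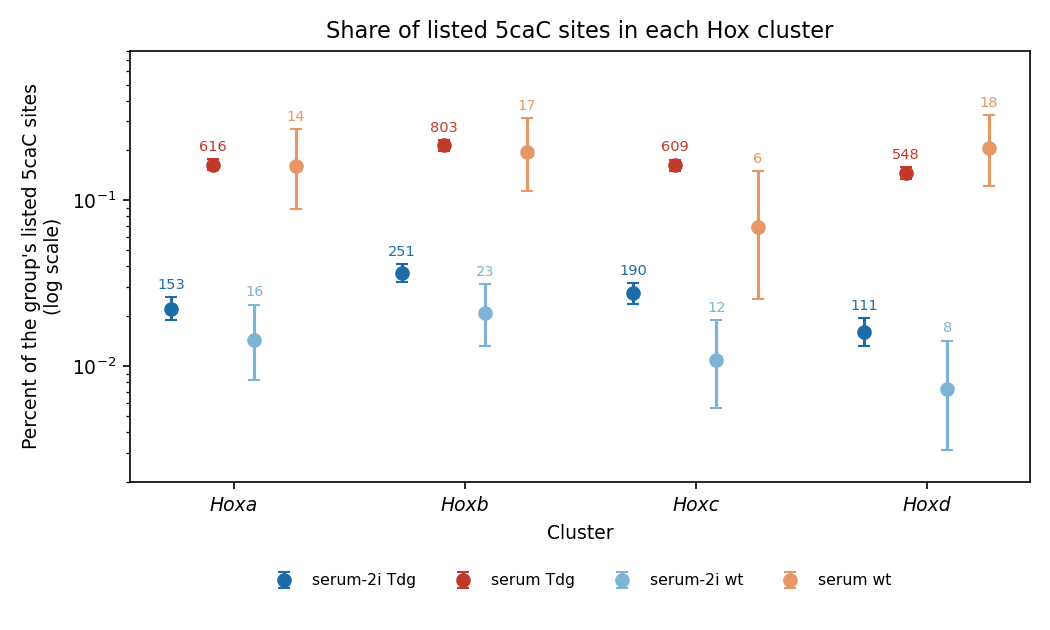
Percent of each group's listed 5caC sites that lie in each Hox cluster (log scale), with exact 95% binomial intervals and the number of sites above each point. In serum-2i cells of both genotypes every cluster lies below its value in serum cells of the same genotype, for all clusters together 0.102% against 0.688% in Tdg cells.

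For each cluster and gene, its share of all listed coverage was computed in either group, and the log2 ratio of both shares compares the groups. It was called lower or higher where the ratio was 2-fold or more and the exact conditional 95% interval of the log2 ratio did not include 0. Over the 4 clusters the log2 ratio of serum-2i Tdg over serum Tdg was -3.29 (interval -3.31 to -3.27), a 9.79-fold lower share. It was -3.35 for Hoxa, -3.17 for Hoxb, -3.16 for Hoxc and -3.63 (-3.68 to -3.58) for Hoxd. In wt cells the log2 ratio of serum-2i over serum was -3.51 (-3.67 to -3.35), on 59 and 55 sites, and all 4 clusters were called lower. There the values ran from -4.79 (-5.14 to -4.45) for Hoxd to -2.26 (-2.72 to -1.78) for Hoxc, which rests on 12 sites in serum-2i and 6 in serum. The median of all tested genes was itself -1.64 in this wt comparison, against 0.10 in Tdg cells, and relative to it Hoxc stood at -0.62 and lost its call, as it did inside member spans alone (-0.96). At the positions listed in both groups alone, the log2 ratio of the 4 clusters was -1.45 in Tdg cells, still called lower, and 0.0874 in wt cells, on 5 shared positions.

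Between the genotypes the clusters as a whole stayed within 2-fold in share. The log2 ratio of serum Tdg over serum wt was 0.57 (0.44 to 0.69), and that of serum-2i Tdg over serum-2i wt was 0.78 (0.69 to 0.88). The medians of all tested genes in these comparisons were -1.36 and -0.19. Hoxc was called higher in both, with 1.95 (1.55 to 2.39) in serum and 1.05 (0.85 to 1.26) in serum-2i, and Hoxd in serum-2i alone (1.03, 0.77 to 1.30). In serum Hoxd stood at -0.13 (-0.35 to 0.10). The difference between the clusters was not tested. With a common coverage minimum of 10 the serum-2i calls of Hoxc and Hoxd were lost (0.53 and 0.86). Relative to the median of all tested genes in serum, which are only those with a listed wt site, the 4 clusters stood at 1.93, called higher, and Hoxd at 1.23. At the positions listed in both serum-2i groups alone the 4 clusters stood at -0.0914, Hoxc at -0.53 and Hoxd at 0.76, and inside member spans alone Hoxc stood at 0.60 and Hoxd at 0.91, none of them called. In number, Tdg cells had 46.8 times as many sites in the clusters as wt cells in serum (2576 against 55) and 11.9 times as many in serum-2i (705 against 59), where the whole series had 43.1 and 6.22 times as many.

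In serum Tdg cells the clusters were denser in sites than every other 100 kb window of the genome. Of 26312 windows that do not overlap a cluster, none had more sites per length than any of the 4 clusters, whose densities were 626 per 100 kb in Hoxa, 462 in Hoxb, 526 in Hoxc and 565 in Hoxd. In serum-2i Tdg cells 198 windows were denser than Hoxa, 292 denser than Hoxb, 140 denser than Hoxc and 831 denser than Hoxd. Of the 9 windows that overlap a cluster, 0 were among the 100 densest in serum-2i Tdg cells and 8 in serum Tdg cells. In serum wt cells, with far fewer sites, 7, 39, 205 and 4 windows were denser than Hoxa, Hoxb, Hoxc and Hoxd, against 1599, 2548, 3813 and 4959 in serum-2i wt cells. Density here is per length and not per CG, since no genome sequence was used.

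All 38 member genes had fewer sites in serum-2i Tdg than in serum Tdg cells. Of the 37 that passed the minimum of 20 for summed coverage averaged over the 4 groups, 35 were called lower, 0 higher, and 2 were listed in serum Tdg cells alone. Among 18048 genes listed in both Tdg groups, out of 19376 kept, 25.7% were called lower and 29.6% higher. The median log2 ratio of the members was -3.44, against 0.10 over all genes tested. Hoxd1, which is next to the Haglr transcript at the cluster's end, was the gene that did not pass, with 1 site in serum-2i Tdg and 4 in serum Tdg cells. These genes are neighbours, and some share sites: the span of Hoxa3 covers Hoxa4, Hoxa5 and Hoxa6, that of Hoxb3 covers Hoxb4, that of Hoxd3 covers Hoxd4, and Hoxd10 overlaps Hoxd11. With the positions inside exactly 1 member span alone, an alternative added after the data were seen, 30 were called lower. At the positions listed in both Tdg groups alone 31 were called lower, Hoxb5 (-0.73), Hoxb13 (-0.53) and Hoxc8 (-0.97) were not called, and Hoxc13 was called higher (1.16) on 1 shared position.

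**Figure D2:**
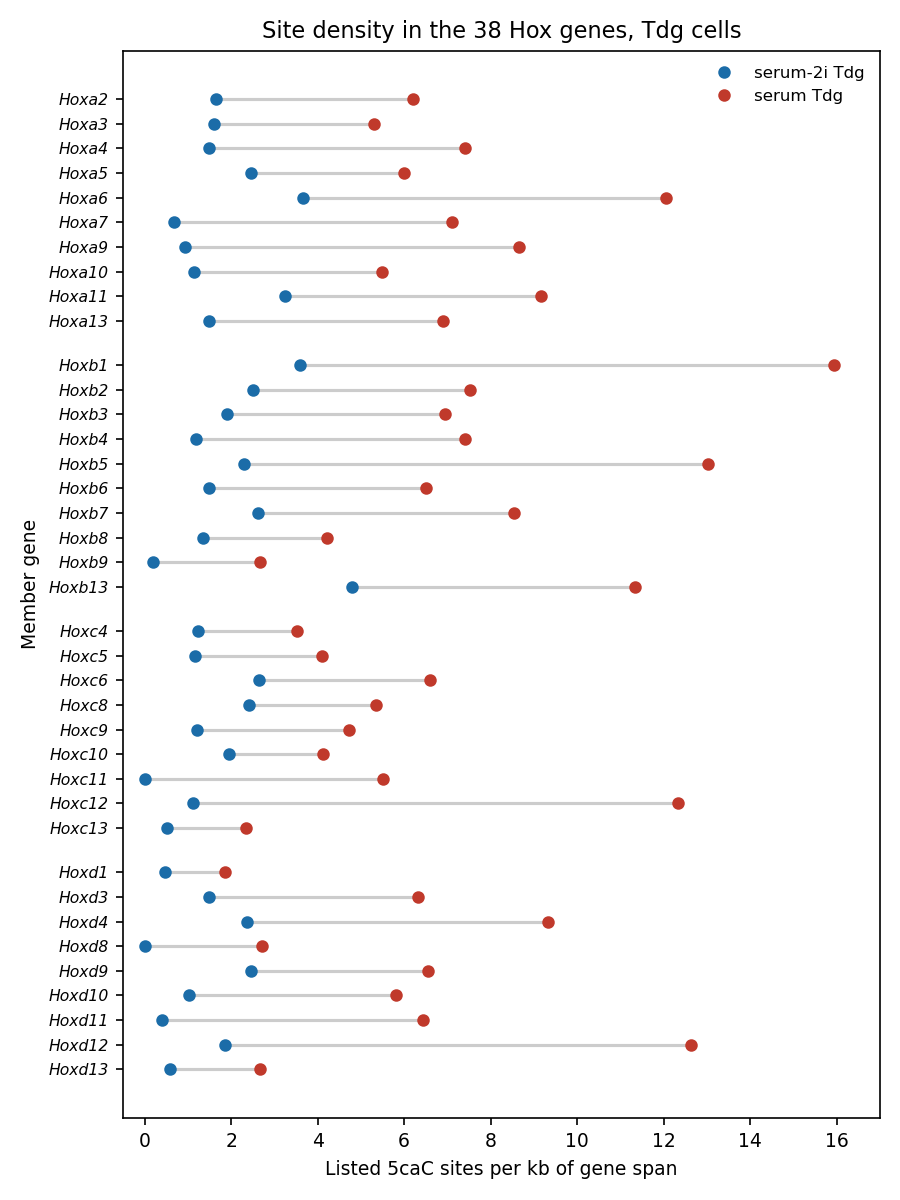
Listed 5caC sites per kb of gene span in the 38 Hox genes, by cluster and paralogue number, in serum-2i Tdg cells (blue) and serum Tdg cells (red). Every gene lies further left in serum-2i Tdg cells, from 0 sites per kb in Hoxc11 and Hoxd8 to 4.79 in Hoxb13, against 1.85 in Hoxd1 to 15.9 in Hoxb1 in serum Tdg cells.

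The members of groups 1 to 4 act mainly in the hindbrain, the pharyngeal arches and the neck. Hoxa3, needed for thymus and parathyroid, had the most sites of its cluster, 71 in serum-2i Tdg and 233 in serum Tdg cells, and 8 each in serum-2i and serum wt cells. Its paralogue Hoxb3 had the most sites of any member, 78, 284, 7 and 5 in the same groups. Hoxd3, which acts in the first neck vertebrae, led its cluster with 54, 229, 5 and 8 sites. These 3 spans are the longest of the members, and per kb Hoxa3 had 5.29, Hoxb3 6.96 and Hoxd3 6.31 sites in serum Tdg cells, near the member median of 6.47. Hoxb1, which gives the fourth hindbrain segment its identity, was the densest member in serum Tdg cells, with 9 sites in serum-2i Tdg cells and 40 in serum Tdg cells, or 3.59 and 15.9 per kb. It had no listed site in wt cells of either medium. Hoxa2, which patterns the second arch, had 4 sites in serum-2i Tdg and 15 in serum Tdg cells, and Hoxb2 had 6 and 18. The group 4 genes Hoxa4, Hoxb4, a factor known for expanding blood stem cells, Hoxc4 and Hoxd4 had 3, 4, 23 and 17 sites in serum-2i Tdg cells, against 15, 25, 66 and 67 in serum Tdg cells. All 10 kept members of groups 1 to 4 were called lower, with log2 ratios from -4.14 to -2.91.

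Groups 5 to 8 act mainly at trunk level. The group 5 genes Hoxa5, a regulator of lung formation, Hoxb5 and Hoxc5 had 7, 6 and 4 sites in serum-2i Tdg cells, against 17, 34 and 14 in serum Tdg cells. Hoxb5 had 2.30 sites per kb in serum-2i Tdg and 13.03 in serum Tdg cells. Hoxa6, Hoxb6 and Hoxc6 had 14, 13 and 36 sites in serum-2i Tdg and 46, 57 and 90 in serum Tdg cells. Hoxc6 held the most sites of its cluster, and in wt cells it had 0 in serum-2i and 1 in serum. Hoxa7 and Hoxb7 had 2 and 12 sites in serum-2i Tdg cells, against 21 and 39 in serum Tdg cells. In group 8, Hoxb8 had 8 and 25 sites and Hoxc8 9 and 20. Hoxd8 had no listed site in serum-2i Tdg cells and 9 in serum Tdg cells, and none in wt cells. Of the 11 members, 10 were called lower, with log2 ratios from -4.34 to -2.27, and Hoxd8 had no ratio.

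Groups 9 to 13 act in the lumbar and tail region, the limbs and the genital tract, and both the lowest and the highest ratio of all members fell here. Hoxb9, which acts in the rib cage, had 1 site in serum-2i Tdg and 14 in serum Tdg cells and none in wt cells, for the lowest log2 ratio (-6.05). Hoxb13, a gene of the prostate and tail bud, had 11, 26, 1 and 2 sites in serum-2i Tdg, serum Tdg, serum-2i wt and serum wt cells, for the highest ratio (-2.09). Hoxa9, a blood progenitor gene activated in leukaemias, Hoxc9 and Hoxd9 had 4, 9 and 6 sites in serum-2i Tdg cells, against 37, 35 and 16 in serum Tdg cells. Hoxa10, needed in the uterus, Hoxc10 and Hoxd10 had 11, 10 and 11 against 53, 21 and 63. In group 11, whose members Hoxa11 and Hoxd11 shape the forearm and the kidney, Hoxa11 had 12 and 34 sites, Hoxd11 3 and 48, and Hoxc11 0 and 12 in serum-2i Tdg and serum Tdg cells. Hoxc12 and Hoxd12 had 2 and 5 sites in serum-2i Tdg cells, against 22 and 34 in serum Tdg cells, where they reached 12.3 and 12.6 per kb. Of the group 13 genes, Hoxa13 and Hoxd13 build the digits and Hoxc13 acts in hair and nails. Hoxa13, Hoxc13 and Hoxd13 had 3, 4 and 2 sites in serum-2i Tdg cells and 14, 18 and 9 in serum Tdg cells. Of the 16 members, 15 were called lower, and Hoxc11 had no ratio.

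Taken by region, the log2 ratio in Tdg cells lay between -3.48 and -3.12 in each part of the clusters, while single genes and windows differed more. The span of Hoxa3, in groups 1 to 4, covers Hoxa5 and Hoxa6, so their sites count in 2 of the sets. Spans of groups 1 to 4 together had 16.5 sites per 10 kb in serum-2i Tdg and 59.5 in serum Tdg cells (log2 ratio -3.33, interval -3.37 to -3.30). Those of groups 5 to 8 had 19.97 and 66.9 (-3.12, -3.17 to -3.07), and those of groups 9 to 13 had 12.5 and 59.2 (-3.48, -3.53 to -3.43). The sequence between member spans, 211 kb in all, had 13.01 and 44.1 sites per 10 kb (-3.24, -3.28 to -3.21). Of 50 windows of 10 kb along the clusters, 46 (92%) had more sites in serum Tdg cells, 3 had more in serum-2i Tdg cells and 1 had the same number. These 4 windows adjoin each other in the long stretch without Hox genes between Hoxb13 and Hoxb9, from 10 to 50 kb after the cluster's Hoxb13 end. They held 5, 1, 5 and 5 sites in serum-2i Tdg and 4, 0, 0 and 5 in serum Tdg cells. The widest contrast was the window around Hoxc12, 10 to 20 kb from the Hoxc13 end, with 5 sites in serum-2i Tdg and 96 in serum Tdg cells.

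**Figure D3:**
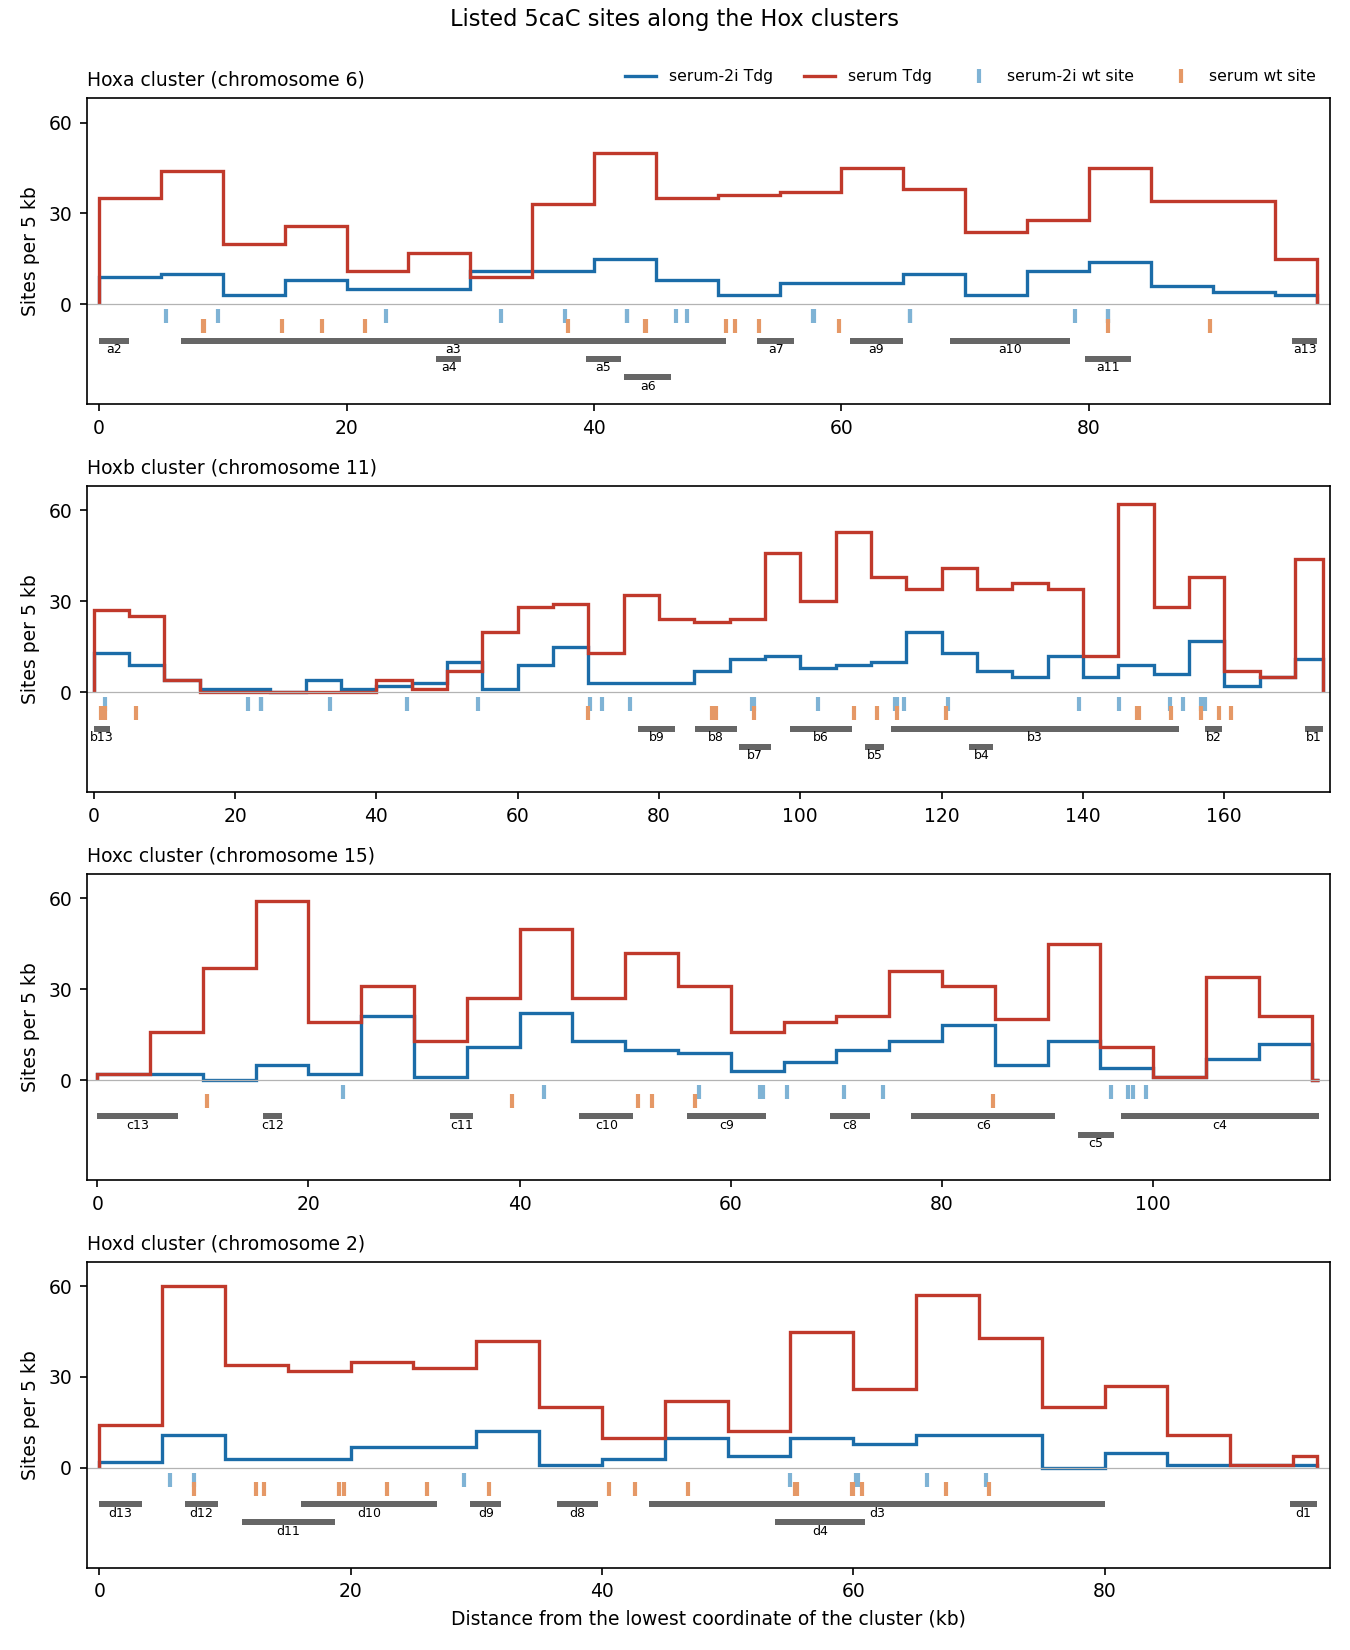
Listed 5caC sites per 5 kb along the 4 Hox clusters in serum-2i Tdg cells (blue line) and serum Tdg cells (red line), with single sites of serum-2i wt and serum wt cells as ticks and the member genes as grey bars. The red line lies above the blue one in 85 of the 97 windows that hold a site, and both lie at 4 or fewer sites per window from 10 to 50 kb after the Hoxb13 end of Hoxb.

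The density fell off outside the clusters. In the 100 kb on either side of each, Tdg cells had 7.06 sites per 10 kb in serum-2i and 10.3 in serum, against 14.5 and 53.1 inside, which is 2.06 and 5.16 times the flank. Some edges were sharp and others not. In the first 10 kb beyond Hoxd1 no group had a listed site, and beyond Hoxb1 there were 0 in serum-2i Tdg and 8 in serum Tdg cells. Beyond Hoxa13 the first 10 kb held 33 and 63 sites and beyond Hoxd13 4 and 43. The homeobox genes Evx1 and Evx2, which flank the Hoxa and Hoxd clusters on their group 13 side, had 6 and 3 sites in serum-2i Tdg cells, against 46 and 41 in serum Tdg cells, with log2 ratios of -3.13 and -5.00. A chosen list of neighbours had 11 kept genes, some of them, such as Hibadh and Tax1bp1, beyond the 100 kb flanks. Of these 11 genes 5 were called lower (Evx1, Evx2, Calcoco1, Smug1 and Lnpk) and 3 higher, against 25.7% lower and 29.6% higher over all tested genes. The higher ones were the adaptor gene Skap2 (46 sites in serum-2i Tdg and 4 in serum Tdg cells, 3.35), the valine breakdown gene Hibadh (13 and 5, 1.88) and the T-cell adaptor gene Skap1 (192 and 52, 1.42).

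Every long non-coding RNA gene that overlaps the clusters had fewer sites in serum-2i Tdg than in serum Tdg cells. Of 29 further annotated genes that lie wholly inside the cluster spans, 22 had a site in serum-2i Tdg and 26 in serum Tdg cells. Gm30528, which reaches beyond the Hoxc4 end of Hoxc, had 46 and 107 sites. Hoxb5os had 32 sites in serum-2i Tdg and 140 in serum Tdg cells, Hoxaas3 25 and 100, and Hoxa11os 6 and 40. Haglr, between Hoxd1 and Hoxd3, had 7 and 38. Hotair, which lies between Hoxc12 and Hoxc11 and whose RNA is known for binding Polycomb proteins, had 5 and 11. The pseudogene Gm11539, in the gap between Hoxb13 and Hoxb9, had 10 sites in serum-2i Tdg and 7 in serum Tdg cells and was called neither way (log2 ratio 0.33, 0.08 to 0.58).

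The clusters also hold 6 microRNA genes, and their sequences, from RefSeq (GRCm38.p6), are shown because the listed CGs fall into the miR-196 hairpins and not into those of miR-10. MicroRNAs of both families are known to repress Hox transcripts. The mature 5p forms, 5′ to 3′ with the seed (bases 2 to 8) in capitals, share 1 seed within each family.
mmu-miR-196a-5p: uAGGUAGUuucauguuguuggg
mmu-miR-196b-5p: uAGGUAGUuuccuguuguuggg
mmu-miR-10a-5p: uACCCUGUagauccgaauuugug
mmu-miR-10b-5p: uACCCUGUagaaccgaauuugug
The hairpins are shown 5′ to 3′ as RNA, with each CG that lies wholly inside and was listed in serum Tdg cells in capitals.
Mir196b hairpin: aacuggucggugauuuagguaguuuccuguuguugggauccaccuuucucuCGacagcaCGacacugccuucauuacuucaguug
Mir196a-1 hairpin: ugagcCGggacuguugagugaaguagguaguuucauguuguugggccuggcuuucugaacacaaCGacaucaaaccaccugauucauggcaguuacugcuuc
Mir196a-2 hairpin: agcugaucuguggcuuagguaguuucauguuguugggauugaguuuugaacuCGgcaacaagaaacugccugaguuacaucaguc
Mir10a hairpin: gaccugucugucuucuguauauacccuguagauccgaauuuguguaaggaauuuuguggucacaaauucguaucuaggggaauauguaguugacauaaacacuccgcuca
Mir10b hairpin: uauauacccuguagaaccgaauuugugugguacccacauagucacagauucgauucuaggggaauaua
Mir196b, on chromosome 6 between Hoxa9 and Hoxa10 (52230081 to 52230165, minus strand), had 2 of its 3 CGs listed in serum Tdg cells, with coverages of 12.5 and 8.5. Mir196a-1, on chromosome 11 before Hoxb9 (96265164 to 96265265, plus strand), had both CGs listed, at 38 and 26. Mir196a-2, on chromosome 15 between Hoxc10 and Hoxc9 (102973350 to 102973434, plus strand), had its 1 CG listed at 42.5. A further listed CG, at a coverage of 10, starts on the last base of this hairpin and ends outside it. None of these CGs was listed in serum-2i Tdg, serum-2i wt or serum wt cells. Mir10a, with 3 CGs, inside Hoxb3, and Mir10b, with 2, inside Hoxd3 and Hoxd4, had none listed in any group, nor had Mir615 inside Hoxc5.

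In serum Tdg cells the density of sites near the available Hox starts was close to that farther away, while over all protein-coding genes it was higher near the start. Starts were available for 22 members, mostly of Hoxa and Hoxd, with Hoxb1, Hoxb4 and Hoxb8 alone from Hoxb and Hoxc4 alone from Hoxc. Within 500 bp of 24 Hox starts there were 1.38 sites per kb and start in serum-2i Tdg and 6.92 in serum Tdg cells, and from 500 to 3000 bp away 1.56 and 6.30. Around 21019 protein-coding starts the values were 0.436 and 0.886 within 500 bp and 0.450 and 0.517 farther away. Serum Tdg sites of protein-coding genes at large thus peaked at the start. Around these Hox starts the density 500 to 3000 bp away was 0.911 times that near the start, against 0.583 times for all protein-coding starts.

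**Figure D4:**
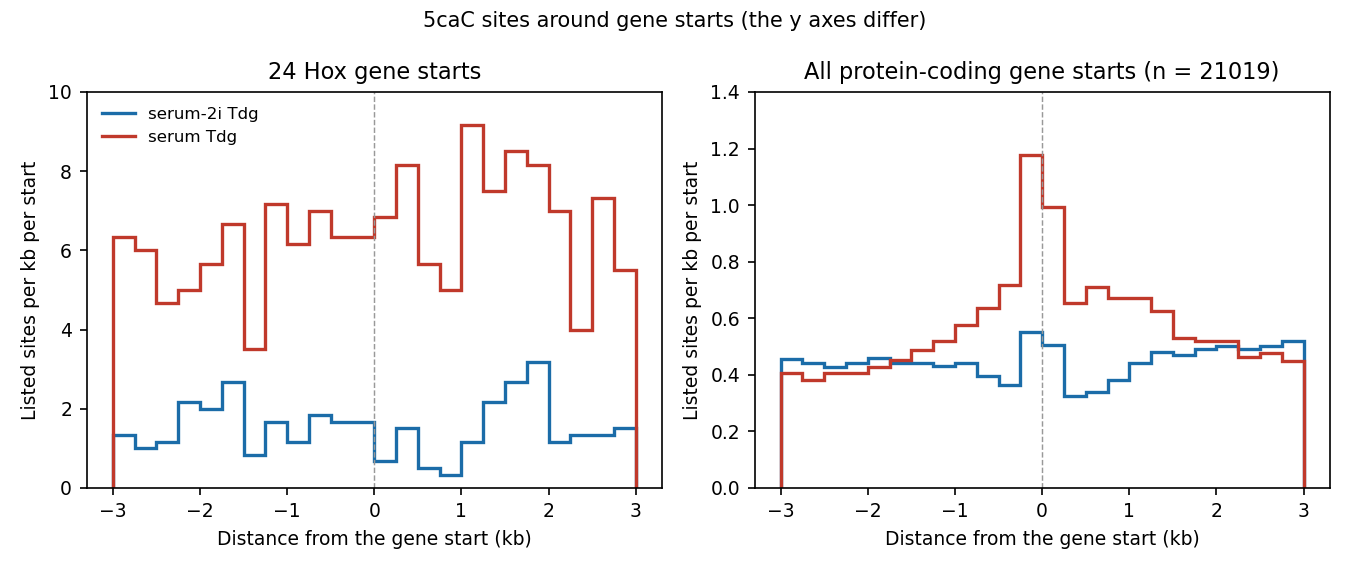
Listed 5caC sites per kb and gene start in bins of 250 bp, from 3 kb before to 3 kb after the start, in serum-2i Tdg cells (blue) and serum Tdg cells (red), for 24 Hox starts (left) and 21019 protein-coding starts (right), with different y axes. The right panel peaks at the start in serum Tdg cells, while the left one stays between 3.5 and 9.17 in those cells.

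Promoter sequences from RefSeq, from 250 bases before to 50 after the start, were available for 22 members in 24 windows with 416 CGs, which allowed a count per CG. Of these CGs, 2.88% (1.499 to 4.98) were listed in serum-2i Tdg and 11.3% (8.42 to 14.7) in serum Tdg cells. In wt cells 0 of 416 (a share of up to 0.883%) were listed in serum-2i and 0.481% in serum. Over 298564 CGs in protein-coding promoters the shares were 1.21%, 2.51%, 0.115% and 0.0415% in the same order of groups. In Hox promoters with 15 or more CGs, 0.647% were listed in serum-2i Tdg and 6.47% in serum Tdg cells, and with fewer CGs 9.35% and 25.2%. For all protein-coding promoters the same split, set after the data were seen, gave 0.230% and 1.38% with 15 or more CGs and 5.50% and 7.52% with fewer. Of the 13 promoter CGs of Hoxd12, 4 were listed in serum-2i Tdg and 9 in serum Tdg cells, the largest share of the 24 windows, and of the 10 of Hoxb1, 3 and 6. The group 13 genes Hoxa13 (45 CGs) and Hoxd13 (37 CGs) had none listed in any group. The same held for Hoxd1 (29 CGs), the Hoxd11 window with 25 CGs, Hoxa2 (9), Hoxd8 (6), Hoxa9 (4) and Hoxd4 (4). Those with the largest shares and the CG-rich pair from group 13 are shown, as the 250 bases before the start, 5′ to 3′ on the gene's strand, with CGs listed in serum Tdg cells in capitals.
Hoxd12, chr2:74674763-74675012, plus strand: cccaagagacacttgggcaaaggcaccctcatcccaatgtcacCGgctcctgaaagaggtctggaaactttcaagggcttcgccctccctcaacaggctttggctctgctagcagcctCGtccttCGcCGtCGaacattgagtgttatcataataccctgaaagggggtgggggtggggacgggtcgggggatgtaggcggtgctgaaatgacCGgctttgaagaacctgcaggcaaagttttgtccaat
Hoxb1, chr11:96365508-96365757, plus strand: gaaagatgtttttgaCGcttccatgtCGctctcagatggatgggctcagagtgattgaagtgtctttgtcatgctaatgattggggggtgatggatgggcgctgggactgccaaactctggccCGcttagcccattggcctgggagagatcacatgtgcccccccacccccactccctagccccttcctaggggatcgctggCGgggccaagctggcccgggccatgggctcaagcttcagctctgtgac
Hoxa13, chr6:52260881-52261130, minus strand: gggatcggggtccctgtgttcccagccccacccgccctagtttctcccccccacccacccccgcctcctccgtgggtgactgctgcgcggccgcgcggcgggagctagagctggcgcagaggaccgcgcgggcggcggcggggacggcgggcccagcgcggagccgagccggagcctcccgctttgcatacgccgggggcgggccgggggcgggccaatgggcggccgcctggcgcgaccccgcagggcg
Hoxd13, chr2:74667975-74668224, plus strand: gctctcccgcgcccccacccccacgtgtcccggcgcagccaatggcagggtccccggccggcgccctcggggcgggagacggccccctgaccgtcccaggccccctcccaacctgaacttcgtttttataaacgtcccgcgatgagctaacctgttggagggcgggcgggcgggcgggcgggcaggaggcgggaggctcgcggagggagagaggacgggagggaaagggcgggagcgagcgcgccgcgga
In these 250 bases, 6 of 10 CGs of Hoxd12 were listed in serum Tdg cells at coverages of 11.5 to 60, and 4 of 7 CGs of Hoxb1 at 14 to 35. Hoxa13 has 35 CGs there and Hoxd13 has 31, all in lower case.

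The sites that serum-2i Tdg cells had in the clusters were mostly a subset of those in serum Tdg cells. Of the 705 sites, 620 (87.9%, 85.3 to 90.3) were also listed in serum Tdg cells, against 28.6% for serum-2i Tdg sites in the rest of the genome. They were 24.1% (22.4 to 25.8) of the 2576 serum Tdg sites, against 53.0% in the rest of the genome. Such shares depend on the number of sites in each group. The rest of the genome had 688598 serum-2i Tdg and 371912 serum Tdg sites, so not all of the former could be shared. In the clusters, not all of the 2576 could be shared with 705. Both contrasts thus partly restate the difference in site numbers. At these 620 positions the median coverage was 13 in serum-2i Tdg and 37.25 in serum Tdg cells, and coverage was higher in serum-2i at 49 and higher in serum at 567. In the rest of the genome the medians at shared positions were 18.5 in serum-2i Tdg and 17.5 in serum Tdg cells, and 47.3% were higher in serum. Serum Tdg sites not listed in serum-2i Tdg cells had a lower coverage, with a median of 15.5. Listing starts at a coverage of 6 in both groups, so low sites are counted less completely.

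**Figure D5:**
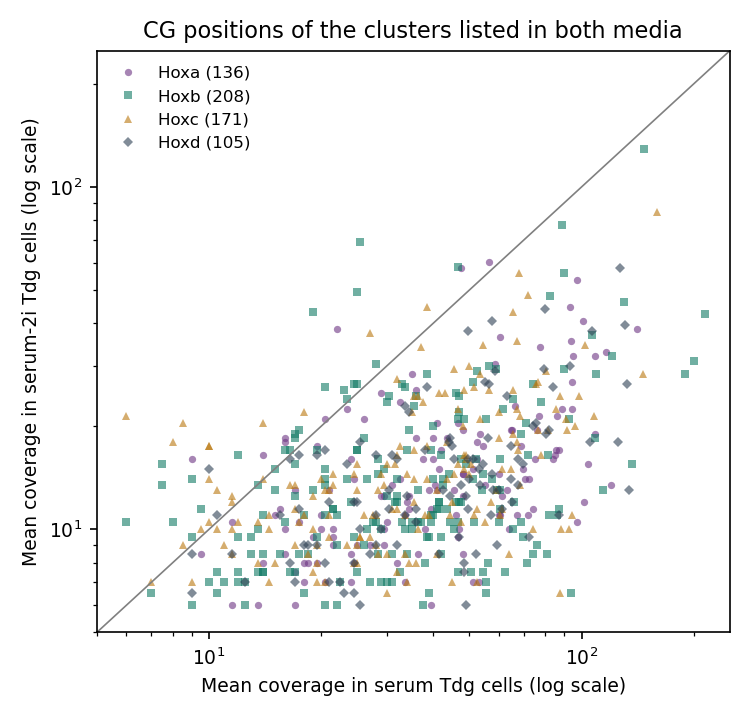
Mean coverage of the 620 Hox cluster positions listed in both Tdg groups, serum-2i Tdg cells (vertical) against serum Tdg cells (horizontal), on log scales, with the line of equal coverage and the number of positions per cluster in the legend. Points lie below the line at 567 positions and above it at 49.

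The most covered sites are given as a description, since choosing them by coverage in 1 group favours that group. The most covered site of serum Tdg cells in the clusters, at chromosome 11 position 96320831 in the overlapping spans of Hoxb3 and Hoxb4, had a coverage of 42.5 in serum-2i Tdg and 215 in serum Tdg cells. In Hoxd, a site within Hoxd4 and Hoxd3 at chromosome 2 position 74728222 had 13 and 134. The most covered site of serum-2i Tdg cells, at chromosome 11 position 96350108 between Hoxb3 and Hoxb2, had 129 in serum-2i Tdg and 147 in serum Tdg cells. In Hoxa the site that was highest in serum-2i Tdg cells, at 52197063 in Hoxa3, had 60.5 and 56.5. Positions listed in all 4 groups numbered 2. At 52243996 in Hoxa11 the coverage was 38.5 in serum-2i Tdg and 140.5 in serum Tdg cells, and 8.5 in wt cells in serum-2i and 3 in wt cells in serum. At 96287826 in Hoxb7 it was 24.5, 47, 14.5 and 5.5 in the same order.

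Sites of the clusters stood close together in serum Tdg cells. The median distance between neighbouring sites was 182 bp in serum-2i Tdg and 42 bp in serum Tdg cells, against 308 and 183 bp over the genome. Unbroken runs of 10 or more sites, each within 100 bp of the next, overlapped the clusters 0 times of 429 in serum-2i Tdg cells and 53 times of 1110 (4.77%) in serum Tdg cells. Hoxa had 12 of these runs, Hoxb 18, Hoxc 12 and Hoxd 11. The longest, in the span of Hoxb3, had 27 sites in 615 bp at a mean coverage of 41.3.

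In wt cells 14 of 38 members had a site in serum-2i and 18 of 38 in serum. Listed in both serum groups were 18 members and 3870 of 19376 kept genes. In both serum-2i groups it was 14 members and 15051 kept genes, and in both wt groups 10 members and 3453 kept genes. Of the 10 members listed in both media all 10 were called lower in serum-2i wt than in serum wt cells, where 61.7% of 3453 tested genes were called lower and 4.52% higher. Of the other members, 4 were listed in serum-2i wt alone, 8 in serum wt alone and 16 in neither. Over all kept genes, those listed in either wt group alone or in neither were not counted, so these counts are a description only. Some wt sites lay where Tdg cells of the same medium had sites too. Of the 59 serum-2i wt sites, 34 (57.6%, 44.1 to 70.4) were listed in serum-2i Tdg cells, against 49.1% in the rest of the genome, which is inside that interval. They were 12 of 16 in Hoxa, 16 of 23 in Hoxb, 3 of 12 in Hoxc and 3 of 8 in Hoxd. Of the 55 serum wt sites, 46 (83.6%, 71.2 to 92.2) were listed in serum Tdg cells, against 54.3%. These shares also depend on the density of Tdg sites, which was higher in the clusters, and an overlap given by density alone was not computed. At these 46 positions the median coverage was 36 in serum Tdg and 4.25 in serum wt cells.

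Between genotypes the members spread in both directions. In serum, 2 of 38 members were called higher in Tdg than in wt cells, Hoxa11 and Hoxc6, 6 lower, 10 between, and 20 were listed in Tdg cells alone. Of 3870 tested genes, out of 19376 kept, 3.46% were called higher and 57.5% lower. In serum-2i, Hoxb3, Hoxb6 and Hoxb13 were called higher in Tdg than in wt cells, Hoxb7 and Hoxc5 lower, 9 members were between, 22 were listed in Tdg cells alone and 2, Hoxc11 and Hoxd8, in neither group. Of 15051 tested genes, out of 19376 kept, 12.2% were called higher and 21.5% lower. Each of these member calls rests on at most 8 wt sites, and the tested genes leave out all those without a listed wt site. Over all kept genes, those listed in Tdg cells alone were not counted.

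Genes that regulate or work with the Hox genes, a list chosen with earlier results of these data known, were mixed in the comparison of media in Tdg cells. Of 28 kept genes out of 29, 6 were called higher, 12 lower, 9 between, and Gsx1 had 8 sites in serum Tdg and none listed in serum-2i Tdg cells. Over all tested genes 29.6% were called higher and 25.7% lower in this comparison. The list's median was -0.48. The lowest were the TALE cofactor Meis3 (1 site in serum-2i Tdg and 9 in serum Tdg cells, -4.55) and the ParaHox gene Gsx2, a forebrain regulator (1 and 8 sites, -4.34). The highest were Suz12, a subunit of Polycomb repressive complex 2 (12 sites in serum-2i Tdg and 1 in serum Tdg cells, 2.40), and the TALE cofactor Pbx3 (27 and 4, 2.40). Of the 5 kept ParaHox genes, which are homeobox genes related to the Hox clusters, 4 were called lower. Of 9 TALE cofactors, which bind DNA together with Hox proteins, 2 were higher, 2 lower and 5 between, and of 14 regulators 4 were higher, 6 lower and 4 between.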

How the data were processed

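Per the labels' protocols, 5-hydroxymethylcytosine and unmodified CGs were blocked before 5caC was tagged, enriched and read on an Ion Proton sequencer. Reads were placed on mm10, per the submitters' processing notes, and the control libraries entered the making of the table, per the labels. Aligner, site caller and listing rule: not given in the sources used here. For each CG position and group, the authors deposited 1 coverage signal. All values were multiples of 0.5 and were read as means of the 2 technical replicates.

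Table positions count from 0: all 14044 listed positions tested in promoter sequences fell on the C of a CG after adding 1, and coordinates are printed that way. Genes came from RefSeq GRCm38.p6, the assembly of mm10. A gene was kept if its summed coverage averaged at least 20 over the 4 groups (19376 of 49550). Shares of summed coverage were compared with exact conditional Clopper-Pearson 95% intervals in Python 3.11.15 with scipy 1.17.1. The calculation was tested on simulated independent counts, without reads shared between CGs, PCR copies or a listing minimum. That test checks the arithmetic and cannot show how wide the intervals should be for these data. Members and lists were chosen with earlier results of these data known. The named members are all 38, with values in every group for those with the most sites per cluster and the lowest and highest ratio. Count models and replicate fits were not run, since there is 1 value per group. Alternatives changed the coverage minimum, measure, scaling, positions, cap and extent.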

Additional observations from a re-analysis of the deposited data

Results flagged for a closer look

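Hoxb13 went opposite ways in the 2 media when Tdg cells were set against wt cells. In serum its log2 ratio of Tdg over wt was -1.57 (95% counting interval -2.18 to -0.87), on 26 sites in serum Tdg and 2 in serum wt cells. In serum-2i it was 1.65 (0.79 to 2.66), on 11 sites in serum-2i Tdg and 1 in serum-2i wt cells. The medians of all tested genes were -1.36 in the serum comparison and -0.19 in the serum-2i comparison. In serum 57.5% of tested genes were called lower, so the serum value of Hoxb13 lay near that of genes at large. The difference between the media was not tested, and each ratio rests on at most 2 wt sites.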

How the results depend on the processing

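The lower share of the clusters in serum-2i Tdg than in serum Tdg cells kept its direction and call under all 9 alternatives run (log2 ratios of -3.40 to -1.45), and 30 to 37 members were called lower. A common minimum of 6, counted among the 9, could not change this comparison, since listing starts at 6 in both Tdg groups. The value nearest 0 came from positions listed in both groups alone, where Hoxc13 turned to 1.16 on 1 shared position. With the same restriction, the 4 clusters turned to 0.0874 for serum-2i wt over serum wt, on 5 shared positions (Hoxa 0.53, Hoxd 0.35), and to -0.0914 for serum-2i Tdg over serum-2i wt (Hoxb -0.49, Hoxc -0.53), and Hoxd turned to 0.64 for serum Tdg over serum wt. The cause was not tested. Scaling used the median ratio of the kept genes listed in both groups, 3870 of 19376 for serum Tdg over serum wt. Removing this median of -1.36 brought the clusters to 1.93, called higher, and Hoxd to 1.23. Genes without a listed wt site had no part in that median. Of the 3 members called higher in serum-2i Tdg than in serum-2i wt cells, 1 was left with a common coverage minimum of 10, 0 by number of sites and 1 with positions listed in both groups. With windows of 5 kb, 87.6% had more sites in serum Tdg cells. A common minimum of 10 left no listed value for the clusters in serum wt cells. No paired analysis was possible because the table holds no value per replicate, and leaving out each replicate and the replicate block were not run for the same reason. The few wt sites limit every wt comparison, and listing minimums differ between genotypes.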
